A study of Sus scrofa with 14 samples.

Results

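Adipocyte nuclei of the pig mammary gland are described here. They were picked by a rule on 12 genes: at least 300 detected genes, a unique molecular identifier (UMI, a tag that counts 1 captured transcript) in at least 2 of the 6 genes ADIPOQ, PLIN1, PLIN4, LIPE, CIDEC and PTGER3, and 0 UMIs summed over the 6 genes EPCAM, COL1A1, PTPRB, RGS5, CD163 and CD3E, which mark epithelium, fibroblasts, endothelium, mural cells, macrophages and T cells. The rule found 543 nuclei among the 127926 nuclei with at least 300 genes, or 0.424%. The values of these 12 genes chose the nuclei, so they are given as a description and carry no test.

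The nuclei came from snap-frozen glands of 10 multiparous sows, 2 at each of 5 stages: day 90 of gestation (G90), day 0 and day 20 of lactation (L0 and L20), and day 2 and day 7 after natural involution (PI2 and PI7). Each gland was 1 library of single-nucleus RNA sequencing, with 18962138 to 53165191 UMIs. Tissue sections of 1 G90 and 1 PI2 gland and milk cells of 1 L0 and 1 L20 sample were used only as a side view. No treatment or genetic change was applied, and the 2 sows of a stage are the replicates. A p-value between stages sets a difference against the spread between libraries, 1 per sow, and this spread includes counting error.

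White adipocytes store fatty acids as triglyceride in a lipid droplet, which perilipins coat and lipases such as PNPLA2 and LIPE break down when catecholamines raise cyclic AMP. Insulin opposes this breakdown and drives the uptake of glucose and fatty acids, and PPARG with the C/EBP factors sets up the programme when a precursor differentiates. In the mammary gland adipocytes form the fat pad in which the epithelium grows. They lose lipid and shrink as milk-producing lobules expand, and fill again after weaning.

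A single library held most of the adipocyte nuclei. L20 replicate 2 gave 414 of the 543 (76.2%), and the other 9 libraries gave 129 together, with 18 and 5 nuclei at G90, 7 and 3 at L0, 11 in L20 replicate 1, 18 and 6 at PI2, and finally 49 with 12 at PI7. The share of nuclei was 2.70% in L20 replicate 2, with an exact 95% interval of 2.45 to 2.97%, and ran from 0.0267% (G90 replicate 2) to 0.294% (PI7 replicate 1) in the others. Exact intervals and the limits that a count of 0 allows cover counting error only. The 2 sows of L20 therefore differed by far more than counting error, and the 9 other libraries all lay below the interval of L20 replicate 2, over a range of their own in which the intervals of the lowest and the highest did not overlap. In PI7 replicate 1, 35 of the 49 nuclei held only 2 markers, and with at least 3 markers required its share was 0.0839%, below PI2 replicate 1 (0.120%) and PI7 replicate 2 (0.0893%), so its place as the highest of the 9 rests on nuclei with 2 markers.

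Other values of L20 replicate 2 differed from those of its stage. Caseins and alpha-lactalbumin took 0.0110% of the UMIs of its other nuclei, against 0.0823% in L20 replicate 1, 0.827 to 1.13% at L0, 0.121 to 0.812% at G90, 0.0385 to 0.102% at PI2, and 0.0115 to 0.0197% at PI7, so on this value it lay with the PI7 glands. Fibroblast markers summed to 4840 CPM (UMIs scaled to a library total of 1000000) in its other nuclei, where the median over libraries was 802 CPM. The adipocyte markers summed to 332 CPM in its other nuclei, against 13.0 to 54.1 CPM in the other glands. These other nuclei include those turned down for an excluded gene. Of its nuclei with a UMI of an excluded gene, 2.88% (CD3E) to 6.53% (COL1A1) had at least 2 adipocyte markers. Of all its nuclei, 5.96% did. In the other glands the share was at most 0.844% for any excluded gene (CD163 in PI7 replicate 1). L20 replicate 2 is treated by its label below. Counts of called genes and shares of nuclei are given without it as well. The part of these features in the adipocyte share was not tested.

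The mean share was 0.720% over the 4 libraries of lactation and 0.134% over the 6 others, a difference of 0.586 percentage points (p = 0.362 in a two-sided exact permutation test with 210 arrangements of the stage labels). The medians went the other way, 0.0730% in lactation and 0.132% otherwise. Without L20 replicate 2 the difference was -0.0748 percentage points (exact permutation p = 0.25 over 84 splits). With each nucleus thinned to 500 UMIs, L20 replicate 2 held 344 adipocyte nuclei, or 2.24%, and the other libraries 0.00535 to 0.145%.

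**Figure D1:**
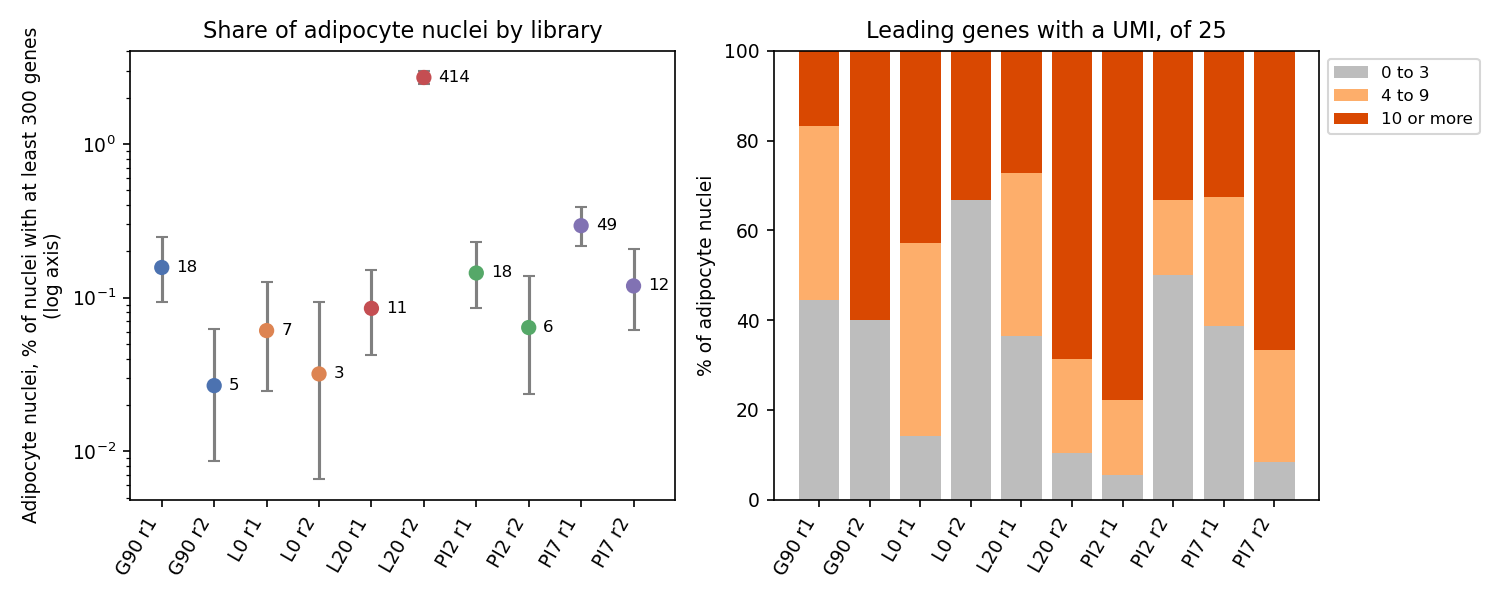
Left, the share of adipocyte nuclei among nuclei with at least 300 genes in each of the 10 libraries, in percent on a log axis, with exact 95% intervals and the number of adipocyte nuclei beside each point. Right, the percent of adipocyte nuclei in which 0 to 3, 4 to 9 or at least 10 of the 25 leading genes had a UMI: L20 replicate 2 stands at 2.70%, while the others lie at or below 0.294%.

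The levels of the 6 markers describe the rule and are no check of the name. ADIPOQ, which encodes the adipocyte hormone adiponectin, had 571, 2417 and 4172 CPM (lowest, median and highest of 9 libraries) in the adipocyte nuclei and 0.583, 3.18 and 85.0 CPM in all other nuclei. PLIN1, the perilipin that coats the large droplet, had 299, 650 and 1615 CPM against 1.14, 3.06 and 24.8 CPM. PLIN4, another perilipin, had 102, 418 and 940 CPM, and LIPE, the hormone-sensitive lipase, 268, 516 and 1567 CPM. The least often found marker was CIDEC, a protein of droplet fusion, with 0, 105 and 486 CPM and a UMI in 65 of the 543 nuclei. PTGER3, a prostaglandin E receptor that lowers cyclic AMP, had 273, 678 and 2025 CPM against 5.26, 10.3 and 167 CPM. L0 replicate 2, with 3 adipocyte nuclei and 2862 UMIs in all, was left out of these ranges and of every test of genes, but not of the test of shares.

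The evidence per nucleus was uneven. Only 2 of the 6 markers had a UMI in 206 nuclei, 3 in 84, 4 in 108, 5 in 129 and all 6 in 16. Of the 25 genes that led the comparison below, nuclei with 2 markers showed a median of 4 and nuclei with 5 or 6 markers a median of 18, at median depths of 1440 and 4810 UMIs. In all, 337 nuclei (62.1%) showed at least 10 of the 25 genes and 84 (15.5%) showed 3 or fewer. In L20 replicate 2 the median was 14 in the adipocyte nuclei and 4 in the other nuclei, whose 99th percentile was 15. Elsewhere the medians ran from 2 to 19 in the adipocyte nuclei and from 1 to 3 in the others. Both were 2 in L0 replicate 2. Since the 25 genes were picked in the same nuclei, these numbers are a description.

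The 84 nuclei with few leading genes had a median of 1072 UMIs, and 82 of them held just 2 markers. PTGER3 had a UMI in 56 of the 84 and in 282 of the 337 with many leading genes, and ADIPOQ in 40 and 323. PLIN1 was seen in 17 and 265, PLIN4 in 19 and 223, LIPE in 21 and 259, and CIDEC in 17 and 36. Of the 84 nuclei 43 lay in L20 replicate 2, and of the 337 with many leading genes 284, so the levels of other cell types are given apart. In L20 replicate 2, luminal markers summed to 78.4 CPM in the nuclei with few leading genes and 25.2 CPM in those with many, and in the other libraries to 555 and 286 CPM. Lymphocyte markers stood at 901 against 165 CPM in L20 replicate 2 and 1030 against 269 CPM elsewhere, and endothelial markers at 1333 against 205 CPM and 951 against 578 CPM. Fibroblast markers were higher in the nuclei with few leading genes in L20 replicate 2 (1822 against 616 CPM) and lower in them elsewhere (523 against 1566 CPM). In L20 replicate 2, 68.6% of the adipocyte nuclei showed at least 10 leading genes, and in the other 9 libraries 41.1%. By the rule itself, nuclei with 2 markers carry the name adipocyte on fewer marker genes than those with 3 or more. Of those 206 nuclei, 82 showed 3 or fewer leading genes and 32 at least 10. Markers and leading genes are both seen more often in deeper nuclei, and the part of depth was not tested.

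The excluded genes also set which nuclei were kept. The 6 adipocyte markers alone picked 1163 nuclei, of which 620 were turned down for a UMI of an excluded gene, 380 of them for COL1A1 and 207 for CD163, and 500 of the 620 lay in L20 replicate 2. Within L20 replicate 2, GHR had a UMI in 79.0% of the nuclei turned down and 84.8% of those kept, PPARG in 51.0 and 64.7%, and KLB in 19.2 and 27.3%. In the other libraries GHR was seen in 48.3 and 51.9%, PPARG in 34.2 and 37.2%, and KLB in 14.2 and 27.1%. Nuclei with 1 marker and no excluded gene, 3345 in all, had a UMI of GHR in 36.4% in L20 replicate 2 and 16.0% elsewhere, where all other nuclei had one in 43.2 and 14.8%. The beta-casein gene CSN2 had a UMI in 6.20% of the adipocyte nuclei and 31.9% of other nuclei outside L20 replicate 2, and within it in 0 of 414 adipocyte nuclei, which allows a share of up to 0.725%, and 0.436% of other nuclei, so that a difference was not detectable there. The adipocyte nuclei had a median of 3043.5 UMIs in L20 replicate 2 and 1860 in the other libraries together, and the other nuclei of a library between 1405.5 and 2496. They were shallower than the other nuclei of the same gland in 5 of the 10 libraries, among them G90 replicate 1 (1463 against 2212) and L0 replicate 1 (1031 against 2001.5). In L20 replicate 2, 7.73% of the adipocyte nuclei and 4.58% of all nuclei were among the 5% with the highest doublet score, and the part of doublets was not tested. Of the barcodes of the adipocyte nuclei, 40 (7.37%) also occurred in another gland library, as did 6.43% of all barcodes, and none was an adipocyte nucleus in 2 libraries.

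UMIs were then summed per library over the adipocyte nuclei and over all other nuclei and compared within libraries, with the sow as a block, over the 9 libraries with at least 5 adipocyte nuclei. A gene was called at an adjusted p under 0.05 and a log2 fold change beyond 1 in size. A gene transcribed in the same nuclei as the markers had to differ, so the test says how far each gene moved with the rule and not which cells these are. Of 15071 genes tested, 482 (3.2%) were called higher and 449 (2.98%) lower in the adipocyte nuclei. Without L20 replicate 2, 504 were called higher. With TMM scaling factors taken over all genes instead of abundant ones, 368 were higher and 1166 lower, as the median of all genes moved from -0.21 to -0.46 on the log2 scale. Of the 482 genes, 312 were called under every scaling and by DESeq2, and 227 under all 22 other settings. Of the 449 lower genes 251 and 50 were, and without L20 replicate 2 the number of lower genes fell to 227.

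The 25 leading genes, higher in all 9 libraries, mixed lipid enzymes, receptors and genes of other kinds. All 25 were called under each of the 22 other settings. For 88 genes (0.584% of those tested) every library was higher in the adipocyte nuclei, and for 1183 (7.85%) every library was lower. The second count is set in part by depth, since a weak gene at 0 UMIs in the few adipocyte nuclei of a library counts as lower there.

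The triglyceride synthesis enzyme DGAT2 (ENSSSCG00000034102, chromosome 9 from 10032163 to 10066082 of Sscrofa11.1) had 54.3, 269 and 4444 CPM in the adipocyte nuclei and 1.68, 3.38 and 15.0 CPM in all other nuclei. The 2 ranges did not overlap, and the log2 fold change was 6.14 (SE 0.41, adjusted p = 4.8e-47). The beta-klotho gene KLB (chromosome 8 from 30653434 to 30696123), the co-receptor for FGF21, had 78.3, 210 and 520 CPM against 1.0, 1.98 and 14 CPM, again without overlap. Its log2 fold change was 6.13 (SE 0.43, adjusted p = 2.7e-42). In PI2 replicate 2, 1 UMI was worth 78.3 CPM, the lowest value of KLB, and in L0 replicate 1, 104 CPM. Both exceed every level of DGAT2 and KLB in other nuclei, so the lack of overlap is set in part by depth. The growth hormone receptor gene GHR (chromosome 16 from 27126300 to 27422618) was the most abundant of the 25, with 951, 3029 and 7700 CPM against 21.0, 150 and 826 CPM. Its log2 fold change was 4.50 (SE 0.27, adjusted p = 1.8e-59), and every library lay above the highest level in other nuclei. ZSWIM2, a zinc finger gene best known from testis, had the largest log2 fold change of the 25, 6.55 (SE 0.45), at 76.4, 163 and 404 CPM.

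The angiotensinogen gene AGT had 27.2, 203 and 567 CPM against 1.51, 3.29 and 66.7 CPM (log2 fold change 5.42, SE 0.41). ACKR4, an atypical receptor that takes up chemokines such as CCL21, had 27.2, 258 and 377 CPM against 1.39, 4.61 and 49.8 CPM (log2 fold change 5.26, SE 0.43). For these genes the lowest adipocyte value lay within the range of other nuclei, although within each of the 9 libraries the adipocyte nuclei were higher. The integrin gene ITGA7, the sarcoglycan gene SGCD, the glypican gene GPC6 and the collagen gene COL5A3, which act at the cell surface or in the matrix, had log2 fold changes of 5.38, 4.01, 3.91 and 3.58. SIK2, a kinase that restrains CREB and its co-activators, had 353, 1153 and 2745 CPM against 50.0, 139 and 216 CPM. The ketone-using enzyme gene OXCT1 (2.74), the alkaline ceramidase gene ACER3 (2.76), the glutamate transporter gene SLC1A3 (2.73) and the transcription factor gene SOX5 (3.23) were also among the 25.

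Lipolysis genes had the highest median of the lists. Of 13 genes tested, 9 were called higher and none lower, with a median log2 fold change of 2.19 against -0.21 for all genes. The list summed to 1005, 2999 and 7521 CPM in the adipocyte nuclei and to 257, 550 and 1056 CPM in other nuclei, and was higher in all 9 libraries. PNPLA2, the lipase that takes the first fatty acid off triglyceride, had 54.3, 363 and 1346 CPM against 17.8, 54.2 and 117 CPM (log2 fold change 2.77, SE 0.32, adjusted p = 2.1e-15). Its activator ABHD5 was called at 2.26. The monoglyceride lipase MGLL stood at 1.47, a call that 10 of 22 alternatives lost, among them leaving out L20 replicate 1 (1.26), PI2 replicate 1 (1.09) or PI2 replicate 2 (1.19). ADCY5, an adenylyl cyclase that makes cyclic AMP, had 0, 496 and 3134 CPM against 5.51, 8.14 and 40.1 CPM (log2 fold change 5.24, SE 0.38). It was at 0 only in L0 replicate 1, where 1 UMI is worth 104 CPM.

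Of the other list genes that act on cyclic AMP or its kinase, some were called. PDE3B, the phosphodiesterase through which insulin lowers cyclic AMP, had 190, 726 and 1271 CPM against 30.7, 143 and 403 CPM (log2 fold change 2.19, SE 0.30, adjusted p = 6.1e-11). The adenosine receptor gene ADORA1, whose protein lowers cyclic AMP, was called at 3.81, and PRKAR2B, a regulatory subunit of the cyclic AMP kinase, at 2.28. The regulatory subunit gene PRKAR1A (-0.66), the catalytic subunit gene PRKACB and the cyclase gene ADCY6 (0.64) were not called, and the receptor gene ADRA2A had 0 UMIs and was not tested. The beta-adrenergic receptor genes ADRB1 and ADRB3 had 1 and 2 UMIs in all adipocyte nuclei and were not tested. The lactate receptor gene HCAR1 had 15 UMIs and the lipase inhibitor gene G0S2 had 4, also too few to test.

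Triglyceride synthesis was higher in parts. Of 12 genes tested, 6 were called higher and none lower (median 0.89). LPIN1, the phosphatidate phosphatase lipin-1 (chromosome 3 from 124940557 to 125074137), had 313, 783 and 2325 CPM against 38.2, 69.5 and 131 CPM, with no overlap and a log2 fold change of 3.64 (SE 0.30, adjusted p = 7.1e-32). PCK1, an enzyme that supplies glycerol phosphate in fat, was called at 6.49 (SE 0.76) but rests on 49 UMIs, and GPD1, another source of glycerol phosphate, was called at 2.53.

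The acyltransferases of the first steps were mixed. GPAM, the mitochondrial enzyme of the first step, had 22.4, 86.0 and 235 CPM in the adipocyte nuclei and 51.3, 136 and 402 CPM in other nuclei. It was higher in the adipocyte nuclei in 2 of 9 libraries and was not called (log2 fold change -0.80, SE 0.36, adjusted p = 0.22). AGPAT2 (-0.30), AGPAT3 (0.0056) and GPAT3 (-0.26) were not called, while GPAT4 was (1.27, but 0.70 under TMM over all genes). AGPAT1, which is outside the list and is named here after its values were seen, was called at 3.23. DGAT1, which shares the last step with DGAT2, was called at 1.78 from 43 UMIs and lost the call without PI2 replicate 1 (1.23).

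Fatty acid synthesis genes were higher in part. Of 15 tested, 8 were called higher and none lower (median 1.25): MLXIPL, ME1, PC, THRSP, ELOVL6, ELOVL5, SCD and ACACA. The desaturase genes FADS1 (-1.40) and FADS2 (-0.32) and the regulator SREBF1 (0.78) were not called. ELOVL6, which lengthens palmitate, had 163, 731 and 2001 CPM against 77.0, 121 and 154 CPM and was higher in all 9 libraries (log2 fold change 2.48, SE 0.30). MLXIPL, the carbohydrate-sensing factor ChREBP, was called at 4.87 (SE 0.38), the lipogenic gene THRSP at 4.70, and malic enzyme ME1, a source of NADPH, at 3.78 (SE 0.38). SCD, which makes monounsaturated fatty acids, was called at 2.47 (SE 0.40) with levels that differed widely: 0 UMIs in L0 replicate 1 and PI7 replicate 2, 50.8 to 229 CPM in 5 libraries, and 1481 and 1332 CPM in the 2 sows of PI2.

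Of the enzymes that build fatty acids from acetyl-CoA, ACACA was called against all other nuclei. FASN, the fatty acid synthase, had 173, 407 and 1645 CPM against 49.6, 320 and 871 CPM. Its log2 fold change of 0.82 (SE 0.28, adjusted p = 0.049) stayed under the size needed for a call. ACLY, which makes the acetyl-CoA, stood at 0.44 (adjusted p = 0.62), and ACACA, which makes malonyl-CoA, was called at 1.25. The call of ACACA was lost without PI2 replicate 1 (0.97), under TMM over all genes (0.71) and with DESeq2 (1.12).

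**Figure D2:**
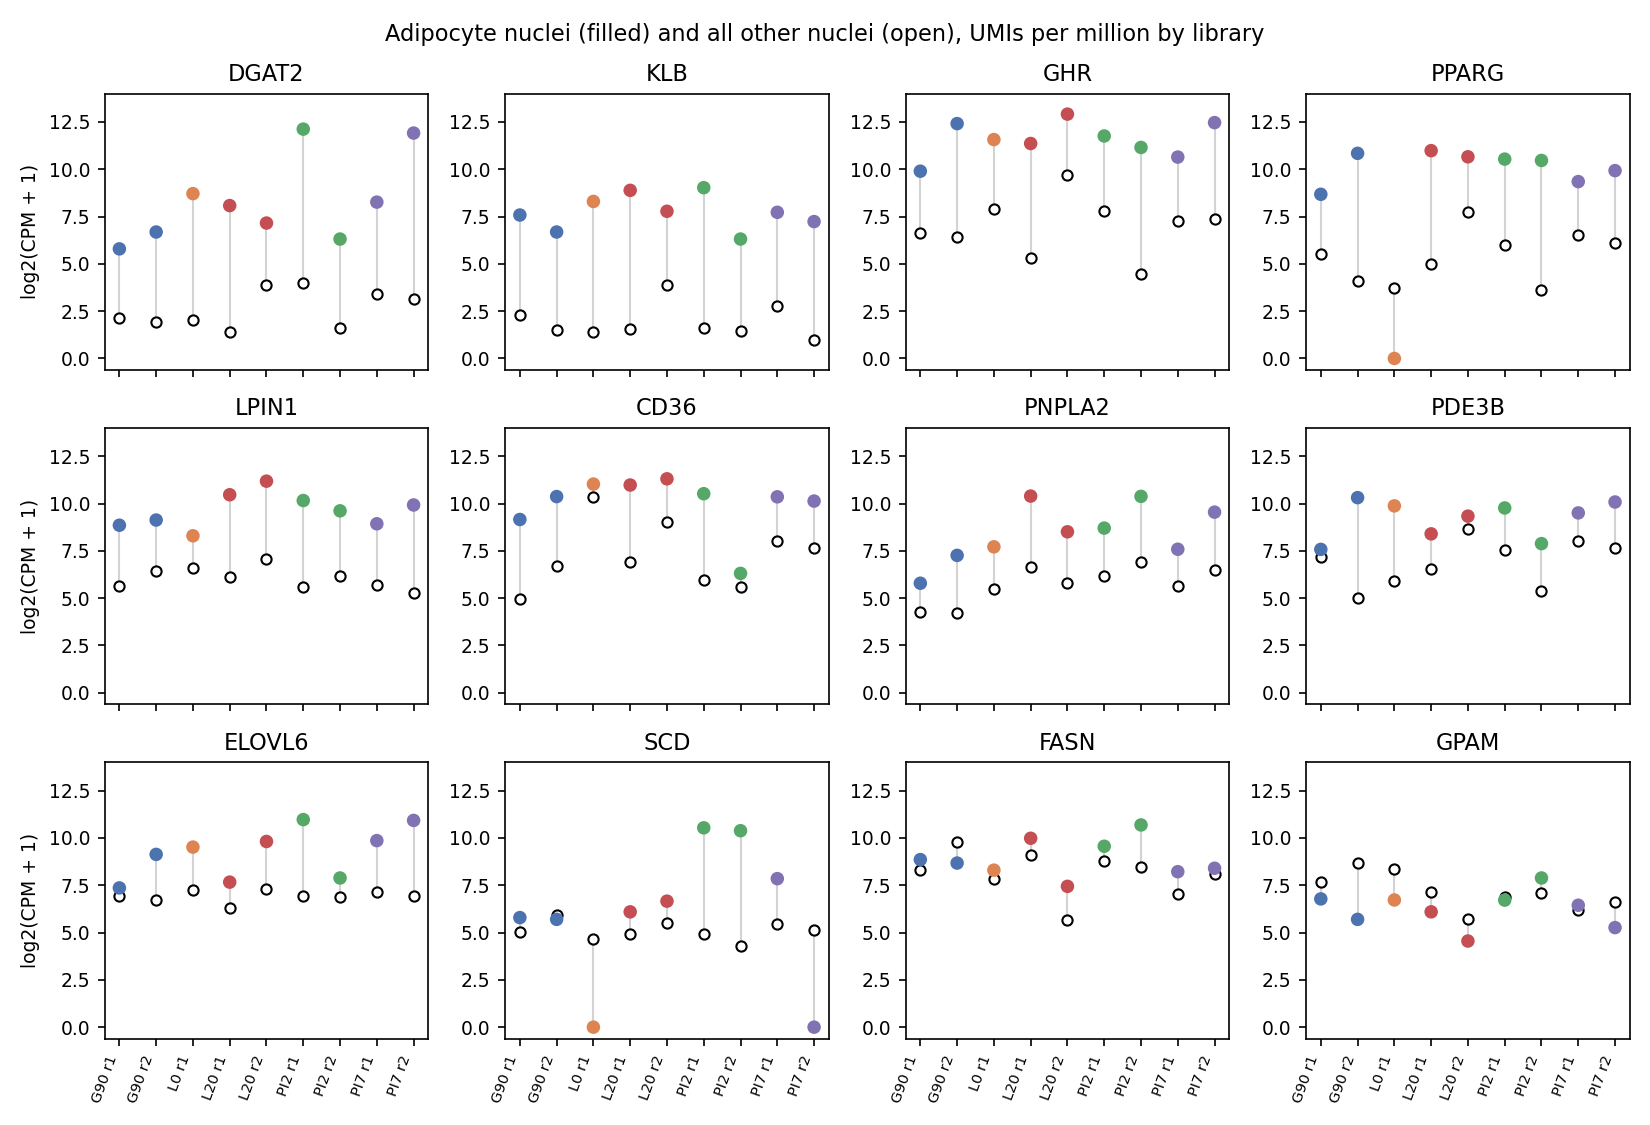
Levels of 12 lipid and hormone genes in each of the 9 libraries, as log2(CPM + 1), with filled points for the adipocyte nuclei and open points for all other nuclei of the same library. DGAT2, KLB and GHR were higher in the adipocyte nuclei of every library, whereas GPAM was higher in 2 of 9 and SCD was at 0 in 2 libraries.

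Uptake and activation of fatty acids gave 4 calls of 11, all higher (median 0.55). The fatty acid carrier gene CD36 had 78.3, 1322 and 2533 CPM against 30.4, 119 and 1318 CPM (log2 fold change 2.89, SE 0.28, adjusted p = 7e-22). Its ranges overlap, but the adipocyte nuclei were higher in each of the 9 libraries. The binding protein gene FABP4 had 54.3, 356 and 635 CPM against 4.44, 15.0 and 99.2 CPM (3.76, SE 0.37). Lipoprotein lipase LPL, which frees fatty acids from circulating lipoproteins, had 78.3, 442 and 879 CPM against 12.6, 42.8 and 353 CPM (2.37, SE 0.32), and the acyl-CoA synthetase gene ACSL1 was called at 2.85.

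Genes of insulin action were called in 9 of 13 cases, all higher (median 2.10). TRARG1, which acts in the traffic of the glucose transporter GLUT4, had 0, 224 and 754 CPM against 0.258, 1.33 and 6.01 CPM (log2 fold change 6.70, SE 0.48). AKT2, the kinase that relays the insulin signal, had 81.5, 299 and 689 CPM against 28.9, 36.6 and 51.0 CPM (2.71, SE 0.35). The ranges did not overlap, but a lone UMI in PI2 replicate 2 is already worth 78.3 CPM. GLUT4 itself, SLC2A4, was called at 2.88 from 61 UMIs. The receptor gene INSR was not called (0.85, adjusted p = 0.14).

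Transcription factors were led by PPARG (chromosome 13 from 68301566 to 68433951), the master regulator of fat cell differentiation. It had 0, 1410 and 2019 CPM against 11.5, 45.4 and 216 CPM and was higher in 8 of 9 libraries (log2 fold change 4.42, SE 0.31, adjusted p = 7.3e-42). The exception was L0 replicate 1, with 0 UMIs in 7 nuclei. CEBPA (3.70) and CEBPB (1.46), its partners in differentiation, and the early B cell factors EBF1 (3.28) and EBF2 (2.24) were called too. In all 7 of 17 factors were higher and none lower (median 1.02). KLF15 (1.47) and PPARA (1.29) lost their call under 8 and 7 alternatives, among them leaving out L20 replicate 2, and CEBPB lost it under TMM over all genes (0.93).

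Receptors and secreted factors were mixed. Of 14 receptor genes 5 were called higher. They were GHR, KLB, the activin receptor gene ACVR1C (5.61), the adiponectin receptor gene ADIPOR2 (3.0) and the thyrotropin receptor gene TSHR (1.86). TSHR lost its call under 8 of 22 alternatives, among them leaving out PI2 replicate 1 (0.85). ADIPOR2 had 0, 508 and 896 CPM against 36.3, 53.6 and 85.0 CPM, while the other adiponectin receptor gene, ADIPOR1, stood at -0.43 and was not called. The prolactin receptor gene PRLR and the IGF-1 receptor gene IGF1R were lower. PRLR had 0, 135 and 978 CPM against 132, 582 and 1913 CPM and was lower in all 9 libraries (log2 fold change -1.76, SE 0.30, adjusted p = 4.8e-07), and IGF1R had 135, 239 and 522 CPM against 278, 471 and 776 CPM (-1.08, SE 0.30, adjusted p = 0.0079). The call of IGF1R was lost without PI2 replicate 1 (-0.99) and that of PRLR only without the sow as a block (-1.41).

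Of 14 adipokine and secreted-factor genes 6 were higher, AGT, FGF10, LEP, IGF1, FGF1 and NRG4, and CCDC3 was lower (-1.76). FGF1 turned from 1.87 to -0.11 when 3 markers were required, and NRG4 fell from 1.77 to 0.47. Of 22 alternatives, 11 lost the call of FGF1, 14 that of NRG4 and 8 that of CCDC3. Leptin (LEP), the satiety hormone of fat, had 0, 28.7 and 470 CPM against 1.47, 2.99 and 69.2 CPM (3.64, SE 0.49) and was at 0 in 3 of 9 libraries. FGF10 had 0, 105 and 942 CPM (3.20, SE 0.43). Resistin (RETN) and adipsin (CFD) had 0 UMIs in the adipocyte nuclei, and RBP4 had 20.

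Among 7 thermogenic genes tested, UCP3 and the creatine kinase gene CKB were higher and none was lower (median -0.14). CKB (1.71) lost its call under 8 of 22 alternatives, among them leaving out either sow of PI2 (1.24 and 1.12). UCP3, a mitochondrial uncoupling protein relative, had 0, 78.3 and 481 CPM against 0.0355, 1.17 and 3.77 CPM and a UMI in 13.8% of the adipocyte nuclei and 0.25% of other nuclei (log2 fold change 6.79, SE 0.55). PRDM16 and PPARGC1A, regulators of brown fat, were not called. Of 10 droplet-associated genes tested 3 were higher, CAV1 (2.35), HILPDA (2.30) and FITM2 (2.55), and none was lower (median 0.15). With 3 markers required, CAV1 stood at 1.1 and HILPDA at 0.77, neither called. PLIN2, the droplet coat of many cell types, had 0, 201 and 1817 CPM and stood at -0.40, and PLIN3 at -0.83, neither called.

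The 16 genes that the study names for adipocytes gave 9 calls up and 1 down (median 1.49). They were chosen on these samples, so this count is no independent evidence of their direction against other nuclei. The study names them as adipocyte markers, for certain stages, or as pairs of a ligand and its receptor. A comparison with other nuclei does not test what it states on stages or pairs. LPIN1, PPARG, ACKR4, CD36, ADIPOR2, FGF10, LPL, FGF1 and FOXO1 were higher and IGF1R was lower. EGFR (0.14), ZFP36L1 (0.30), LRP6 (0.73), ABCA1 (0.75), FGFR1 (0.88) and IGFBP4 were not called. The call of FOXO1 (1.05) was lost under 13 of 22 alternatives, among them leaving out L20 replicate 2 (0.92).

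**Figure D3:**
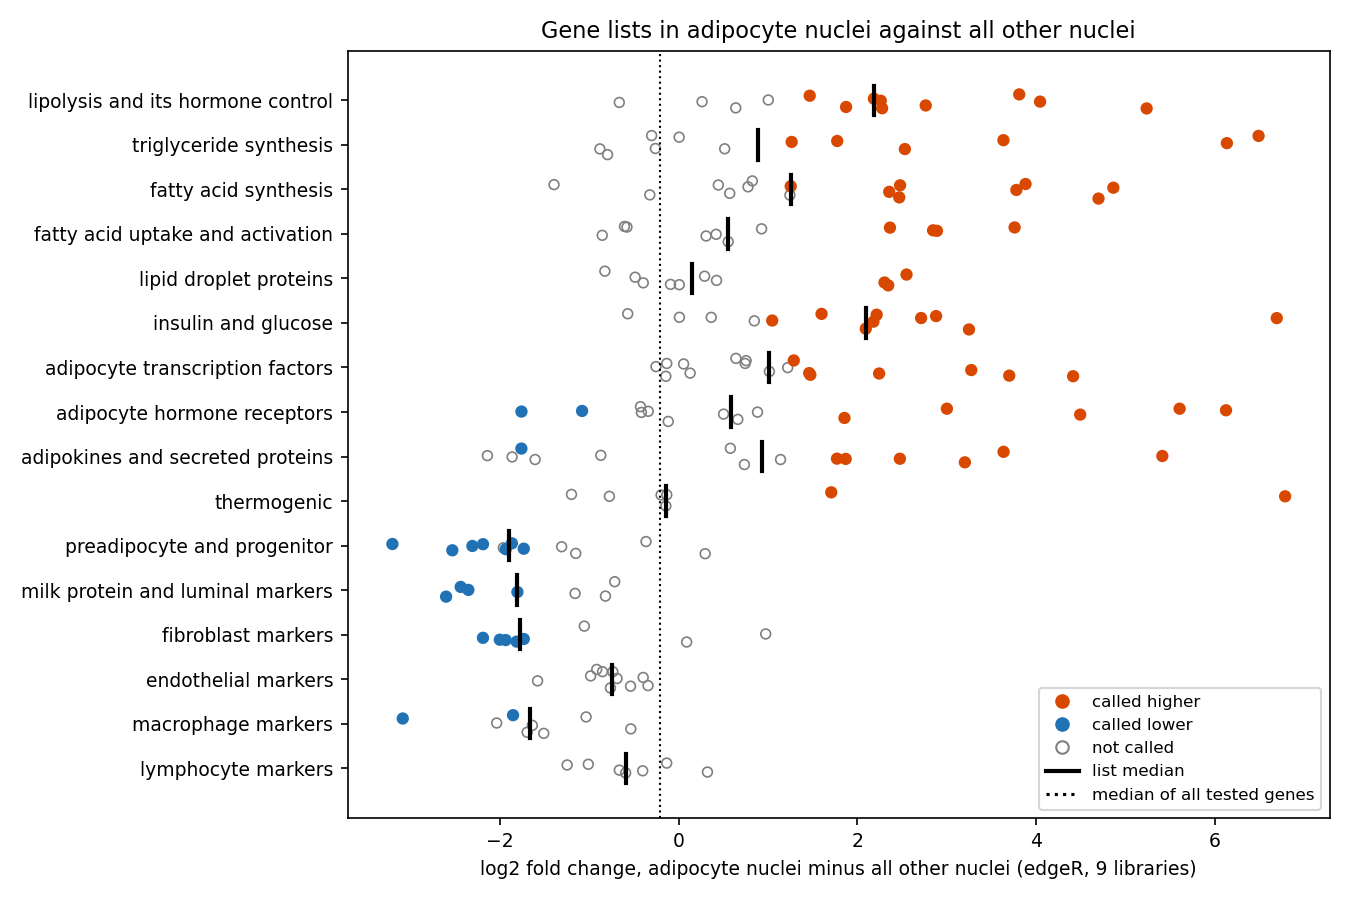
Log2 fold changes between adipocyte nuclei and all other nuclei for the tested genes of each list, with 1 dot per gene and the calls marked. Lipolysis (9 of 13 higher, median 2.19) and insulin genes (9 of 13, median 2.10) lie farthest to the right, and precursor genes (7 of 12 lower, median -1.90) to the left.

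Many named genes that were lower mark other cell types, and this is in part set by the rule, since nuclei with a UMI of an excluded gene were removed. CSN1S1 and CSN2, which encode caseins, were called at -2.60 and -2.44, and the luminal factor gene ELF5 had 23.1, 135 and 627 CPM against 117, 739 and 1234 CPM (-1.81). Of 12 precursor and progenitor genes 7 were lower and none higher (median -1.90), among them PDGFRA (-1.94), DCN (-1.73), PI16 (-2.53) and CD34 (-2.31). DESeq2 called 1 of the 12 lower. When the excluded genes were not used, 161 genes were lower, none of the 12 precursor genes was called and DCN turned to 0.64. Without L20 replicate 2, 227 genes were lower and 1 of the 12 precursor genes was called. CHI3L2 and CLDN3 had 0 UMIs in the adipocyte nuclei.

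Markers of the other cell types stayed measurable in the adipocyte nuclei. Milk protein and luminal markers summed to 56.4, 705 and 7520 CPM against 303, 1687 and 12656 CPM and were lower in all 9 libraries, with 4 of 7 genes called lower. Fibroblast markers summed to 157, 807 and 3050 CPM against 201, 802 and 4840 CPM and were higher in 4 libraries, with 5 of 8 genes called lower. Endothelial markers summed to 78.3, 404 and 1252 CPM against 295, 601 and 1484 CPM, and 0 of 10 genes was called by edgeR or by DESeq2. Macrophage markers were called lower in 2 of 8 genes (C1QA and CD14), lymphocyte markers in 0 of 7 by edgeR and by DESeq2, and myoepithelial markers in 2 of 6. Of 7 mural markers 2 were lower and CSPG4 was higher (2.70). The call of CSPG4 was lost under 7 of 22 alternatives, among them requiring 3 markers (1.32). Whether these UMIs came from free RNA, from doublets or from the nuclei themselves was not tested.

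The adipocyte nuclei were also set against their stromal neighbours. Fibroblast-gated nuclei had UMIs in at least 2 of 6 fibroblast genes and endothelial-gated nuclei in at least 2 of 6 endothelial genes, each without UMIs of the excluded genes of other types and of ADIPOQ and PLIN1. There were 10052 and 7407 of them. Against fibroblast-gated nuclei 340 of 6719 genes were called higher (5.06%) and 366 lower (5.45%), and against endothelial-gated nuclei 478 of 8211 were higher (5.82%) and 697 lower (8.49%). Of the 6557 genes tested in all 3 comparisons, 204 were higher in each. These comparisons share the adipocyte nuclei. Without L20 replicate 2 the higher calls fell to 185 and 304. Under TMM over all genes 169 were higher and 1352 lower against fibroblast-gated nuclei, and 261 higher and 1966 lower against endothelial-gated nuclei. With at least 3 markers 1343 and 1661 were lower.

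Fatty acid synthesis genes were mostly higher than in either neighbour. The list gave 9 higher calls of 11 against fibroblast-gated nuclei (median 1.58, all genes -0.03) and 8 of 10 against endothelial-gated nuclei (median 1.69, all genes -0.06), and FASN (1.58 and 1.66) and SREBF1 (1.35 and 1.29) were called in both. Under TMM over all genes FASN stood at 0.84 and 0.95 and SREBF1 at 0.66 and 0.63, not called. Lipolysis gave 6 of 9 and 4 of 9, triglyceride synthesis 4 of 9 each, insulin genes 5 of 9 and 5 of 8. DGAT2 (6.36 and 6.20), KLB (6.27 and 6.72), LPIN1 (3.89 and 4.41) and AKT2 (2.74 and 2.87) were called against either neighbour. GHR stood at 3.19 and 3.28, below its 4.50 against all other nuclei, and against fibroblast-gated nuclei AGT stood at 3.92 and GPC6 at 2.79. The gates turned down nuclei with UMIs of ADIPOQ or PLIN1, which all other nuclei may hold, and the part of this in the values was not tested.

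Some genes called against all other nuclei were not called against a neighbour. EBF1 differed by 0.55 from fibroblast-gated nuclei (adjusted p = 0.24) and by 2.12 from endothelial-gated nuclei, and EBF2 by -0.13 and 3.56. FGF10 (0.59) and IGF1 (0.62) were not called against fibroblast-gated nuclei, and against endothelial-gated nuclei IGF1 was not called (0.92) and FGF10 was not tested. Against endothelial-gated nuclei the caveola gene CAV1 (-0.19), MGLL (-0.42) and the natriuretic peptide receptor gene NPR1 (-0.45) were not called, although each was called higher against fibroblast-gated nuclei (2.29, 2.21 and 1.66). CAVIN1 (-1.69), CAVIN2 (-2.62) and FABP5 (-2.51) were lower than in endothelial-gated nuclei. Whether the 2 contrasts differ from each other was not tested. PRLR, lower than in all other nuclei, was not called against either neighbour (-0.28 and -0.41).

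**Figure D4:**
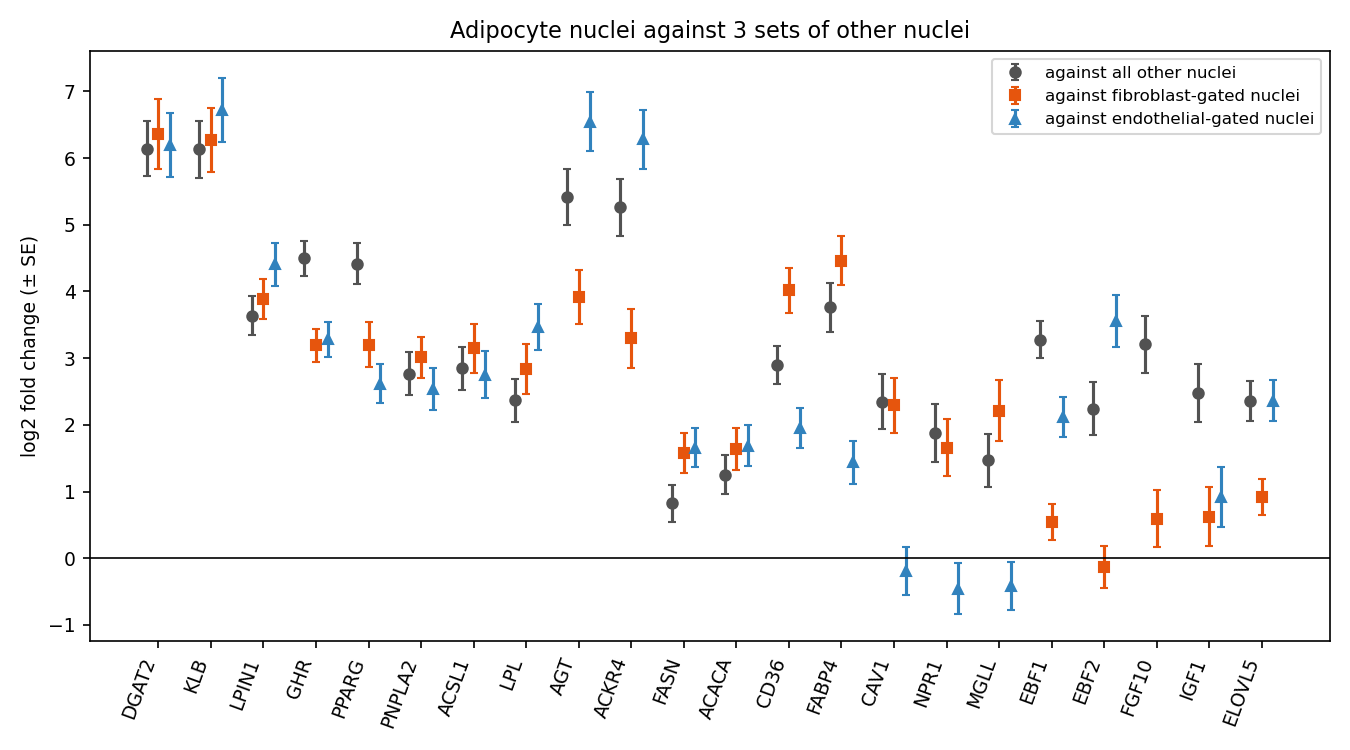
Log2 fold change with a standard error derived from the F statistic, for 22 genes over 9 libraries. Adipocyte nuclei are set against all other nuclei, fibroblast-gated nuclei and endothelial-gated nuclei. DGAT2 and KLB are near 6 in each comparison, whereas EBF1 is 0.55 against fibroblast-gated nuclei and CAV1 is -0.19 against endothelial-gated nuclei.

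Stages were compared within the adipocyte nuclei. Over 1599 genes none was called by edgeR between G90 and L0, L0 and L20, L20 and PI2 or PI2 and PI7 (0% in each), with 91, 130, 142 and 57 genes at an unadjusted p under 0.05. DESeq2 called 0, 2, 0 and 0. L0 was 1 library of 7 nuclei, so its 2 comparisons take that library to vary like those of the other stages and have no replicate of L0. The standard errors were wide even for GHR, at 0.91 between L20 and PI2 and 1.18 between L0 and L20 on the log2 scale, with 2 sows per stage at most, and what the spread between sows and the depth each add to them was not tested.

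Single genes still moved widely between libraries. SCD had 1481 and 1332 CPM at PI2 (114 and 17 UMIs), 67.3 and 100 CPM at L20 (1 and 147 UMIs), and 229 and 0 CPM at PI7. The log2 fold change of PI2 against L20 was 3.93 and was not called by edgeR (adjusted p = 0.48). DGAT2 had 4444 CPM in PI2 replicate 1 (342 UMIs) and 78.3 CPM in PI2 replicate 2 (1 UMI). It had 306 and 3847 CPM at PI7, so libraries of 1 stage could lie far apart. These libraries also differed in their nuclei. Only 2 markers were seen in 3 of 18 and 5 of 6 nuclei at PI2, and in 35 of 49 and 3 of 12 at PI7. The part of this in the levels was not tested. LEP had 299 and 470 CPM at PI2 and 28.7 and 0 CPM at PI7 (-3.96, adjusted p = 0.98). CSN3, a milk protein gene, had 2402 CPM in L0 replicate 1 (23 UMIs) and 0 and 0.680 CPM at L20, while caseins and alpha-lactalbumin were also highest in the other nuclei of L0.

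Nuclei of L20 replicate 2 and those of the other libraries differed in how often single genes were seen. GHR had a UMI in 84.8% of the adipocyte nuclei of L20 replicate 2 and in 51.9% of those elsewhere, and PPARG in 64.7 and 37.2%. DGAT2 went the other way with 21.3 and 38.0%, as did UCP3 with 11 and 22.5%. The luminal gene ELF5 had a UMI in 4.83% of those of L20 replicate 2 and in 20.9% elsewhere. Median depths were 3043.5 and 1860 UMIs, and these shares compare 1 sow with 9, so they carry no test. Only 2 markers were seen in 133 of 414 adipocyte nuclei of L20 replicate 2 and in 73 of 129 elsewhere. In 10.4 and 31.8% of the adipocyte nuclei 3 or fewer leading genes were seen. The part of depth and of this mix in the shares was not tested.

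The tissue sections gave a view that did not use these nuclei. Spots, small regions that can hold several cells, were split into those with at least 3 UMIs summed over the 6 markers and those with 0. In the G90 section 281 of 4721 spots and in the PI2 section 54 of 2248 spots had at least 3. Of the 25 leading genes 23 were higher in the marker spots at G90 (median ratio of CPM 2.17) and 17 at PI2 (median ratio 1.93). The background was every tested gene with UMIs in the spots with 0 and at least as many UMIs as the least abundant of the 25. That floor was 7 UMIs at G90 and 1 UMI at PI2. Of these genes 31.8% were higher in marker spots at G90 (median ratio 0.865) and 39.2% at PI2 (median ratio 0.890). A weak gene can be at 0 in the marker spots and then counts as not higher, so these shares are not matched to the abundance of the 25. Marker spots at G90 were shallower, with a median of 2900 UMIs against 8812.5, and there is 1 section per stage and hence no test.

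Genes differed in how strongly they followed the markers in tissue. TRARG1 was 37.4-fold higher in marker spots at G90 and 39.8-fold at PI2, DGAT2 31.0-fold and 12.5-fold, AGT 39.0-fold and 9.29-fold, and GHR 5.54-fold and 9.12-fold (20 and 5 UMIs in the marker spots). LPL was 1.1-fold higher at G90 and 8.34-fold at PI2. FASN (0.797-fold) and GPAM (0.623-fold) were lower in marker spots at G90 and stood at 0.971-fold and 0.941-fold at PI2. COL1A1, a fibroblast marker, was 1.86-fold and 1.82-fold higher in the marker spots of the 2 sections, and its part in these ratios was not tested.

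**Figure D5:**
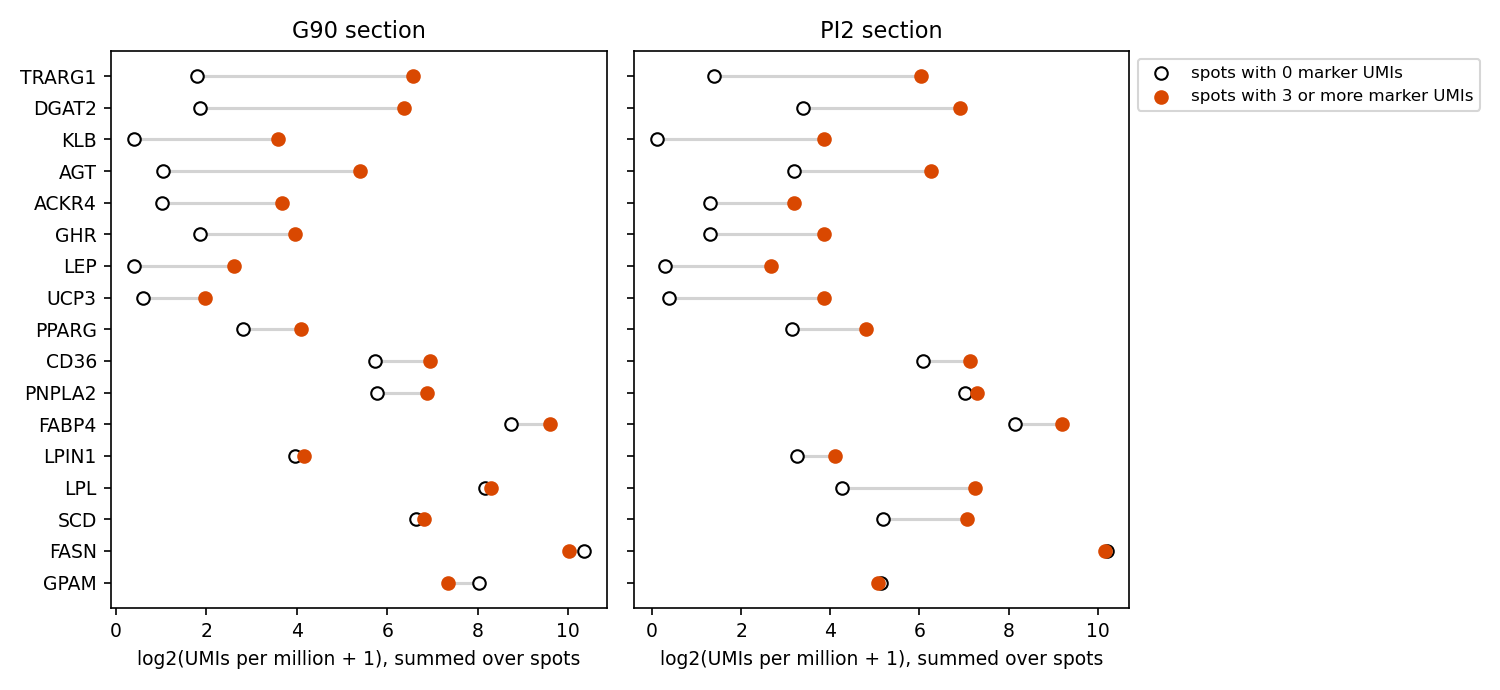
Levels of 17 genes summed over spots with at least 3 marker UMIs (filled) and spots with 0 (open) in the G90 and the PI2 section, as log2(CPM + 1). TRARG1 and DGAT2 are far higher in marker spots of both sections, and FASN and GPAM are not.

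Promoters of the genes called higher were read from the reference genome (RefSeq annotation, Sscrofa11.1, the 250 bases before the annotated start). The C/EBP motif TTGCNNAA, searched on both strands, occurred in 39 of 396 promoters of genes called higher (9.85%) and in 8.2% of all 19531. The PPAR-RXR motif, the letters AGGNCA repeated with 1 base between, occurred in 1 of the 396 (0.253%) and in 0.23% of all, and the EBF motif, TCCC and GGGA with 2 bases between, in 5 (1.26%) and in 0.942% of all. None of the 3 motifs occurred in the promoters of the 25 leading genes. These shares are near the background, and a match is a string of letters and no bound site. Of the markers and list genes with a match, the promoters of PTGER3 (chr6:141958705-141958954, plus strand) and PCK1 (chr17:57930257-57930506, plus strand) are shown 5′ to 3′ with the C/EBP letters in capitals.
PTGER3: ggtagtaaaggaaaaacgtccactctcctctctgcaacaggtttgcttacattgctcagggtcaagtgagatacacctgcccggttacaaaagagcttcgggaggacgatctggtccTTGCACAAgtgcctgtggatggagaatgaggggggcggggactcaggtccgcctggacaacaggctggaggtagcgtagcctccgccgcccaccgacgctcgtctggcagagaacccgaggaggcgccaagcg
PCK1: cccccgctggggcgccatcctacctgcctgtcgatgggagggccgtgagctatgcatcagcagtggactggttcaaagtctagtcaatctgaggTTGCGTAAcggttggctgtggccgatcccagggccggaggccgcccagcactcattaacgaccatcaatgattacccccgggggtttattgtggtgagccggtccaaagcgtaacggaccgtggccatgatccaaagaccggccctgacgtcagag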

How the data were processed

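Single-nucleus libraries of 10 glands, 2 milk libraries and 2 tissue sections were used. Per the study's methods, the authors processed the reads of nuclei and milk with CeleScope against Sscrofa11.1. The submitters' processing notes name Space Ranger 1.2.0 and Seurat 4.3.0. The deposited matrices hold counts of UMIs per gene and barcode, with no normalization. Nuclei with at least 300 detected genes were kept, and no doublet was removed, since Scrublet's automatic calls marked 0 to 2 nuclei in 9 of 10 libraries and 410 in PI7 replicate 2, 1 of them an adipocyte nucleus.

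UMIs were summed per library and tested with edgeR 4.0.16 (quasi-likelihood, filterByExpr, R 4.3.3), with the sow as a block between classes of nuclei of the same gland, and with Benjamini-Hochberg adjustment over all genes tested. A call needed an adjusted p under 0.05 and a log2 fold change beyond 1. Each SE is the size of the log2 fold change divided by the square root of the quasi-likelihood F statistic. It is thus derived from the test and not given by the fit. TMM factors were taken over genes of at least 300 CPM, a limit set after a test on simulated data. There, factors over all genes had called unchanged genes, but the limited factors called some too. The simulated sums shared a mean profile across classes of nuclei, unlike the data, so the test cannot say which factors are right here. The 12 genes of the rule were left out of the tests. Libraries with fewer than 5 adipocyte nuclei were left out, so L0 replicate 2 entered no fit. Stages were compared in 1 fit over the 9 libraries, with no block. Total UMIs per gland were 18962138 to 53165191, and those of the adipocyte nuclei used 9574 to 1470349, so 1 UMI is worth 0.680 to 104 CPM.

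Of 30071 gene identifiers, 15983 had a symbol in the files and 615 were named from RefSeq. Listed genes without a match by symbol (such as CIDEA, AQP7 and UCP1) were not analysed here. The nuclei, gene lists and tests were chosen with earlier results of these data known. Named genes are those of the lists and, per comparison and direction, the 25 called genes with the largest log2 fold change that lay on the same side in every library, with UMIs in at least 6 libraries for higher genes. Replicate numbers did not pair the sows. Alternatives were other scalings, DESeq2 1.42.0, no filter on low counts, other rules for the nuclei, no block or a replicate block, thinning, and each replicate left out. Some results are not reported here.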

Additional observations from a re-analysis of the deposited data

Results flagged for a closer look

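The share of adipocyte nuclei in L20 replicate 2, 2.70%, lay far from the other 3 libraries of lactation. Its gap to the nearest of them was 0.980 of the whole range, above the critical value of 0.829 for 4 libraries. Chance alone singles out about 1 in 20 groups in this way. The highest of the 6 other libraries, PI7 replicate 1, gave 0.512 and did not pass the value of 0.625 for 6.

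Data outside the gland nuclei held the markers too. In the G90 section 281 spots and in the PI2 section 54 spots had at least 3 marker UMIs. In milk, which should hold no adipocyte, 5 of 17630 cells at L0 (0.0284%) and 1 of 14554 at L20 (0.00687%) passed the rule. The lowest gland shares, 0.0267% in G90 replicate 2 and 0.0319% in L0 replicate 2, were near that of L0 milk.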

How the results depend on the processing

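Counts of higher genes against all other nuclei stayed within 1.5 times of 482 under each alternative (343 to 504 with 1 library left out). The 449 lower genes became 1166 under TMM over all genes, 257 with DESeq2, 106 without the sow as a block (no replicate block), 2430 with at least 3 markers, 871 without PTGER3 as a marker, 161 with the excluded genes not used, and 227 (without L20 replicate 2) to 624 (without L0 replicate 1), with 293 without PI2 replicate 1. Against fibroblast-gated nuclei the 340 higher genes became 169 under TMM over all genes, 517 with no filter on low counts, and 185 (without L20 replicate 2) to 375, and the 366 lower ones 1352 under TMM over all genes, 229 with no block, 1343 with at least 3 markers, 687 without PTGER3 and 267 to 412. Against endothelial-gated nuclei the 478 higher genes became 261 under TMM over all genes, 732 with no filter, and 304 (without L20 replicate 2) to 514, and the 697 lower ones 1966 under TMM over all genes, 441 with no block, 1661 with at least 3 markers, and 401 (without L20 replicate 2) to 847. The causes were not tested.

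Between stages 0 genes were called, and with no filter on low counts 3 were higher at L0 than at G90, 8 lower at L20 than at L0, 1 higher at PI2 than at L20 and 1 lower at PI7 than at PI2. TMM over all genes gave 1 and DESeq2 2 lower genes at L20 against L0, and leaving out 1 library gave 0 to 1 there (1 without L20 replicate 1 or PI2 replicate 1) and 0 to 1 higher at PI2 against L20 (1 without PI2 replicate 2). The difference in the share of adipocyte nuclei turned to -0.0748 percentage points without L20 replicate 2 and ran to 0.815 without L0 replicate 2, and it was 1.28 with the excluded genes not used.

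Signs turned for a few genes against all other nuclei. With DESeq2, LOX went to 0.39 and MFRP to 0.045. FGF1 went to -0.063 with at least 10 nuclei per library, -0.11 with 3 markers, -0.00217 without PTGER3 and -0.10 with nuclei of 500 or more genes and no more than 5% of UMIs from mitochondria. With the excluded genes not used, DCN went to 0.64, LUM to 0.41, PI16 to 0.010, LOXL1 to 0.080, FBLN5 to 0.30, SFRP2 to 0.49, POSTN to 0.53, LOX to 0.34, COL1A2 to 0.54, VEGFC to 0.56, FN1 to 0.12 (0.47 against endothelial-gated nuclei), AEBP1 to 0.27, ABCA6 to 0.50, MFAP5 to 0.061 and THY1 to 0.50. For the 146 called genes that were listed or named, each pair of a gene and an alternative was counted against all other nuclei. Of these pairs 2776 kept the call, 402 lost it with the same sign and 21 turned sign. Counted by gene, 81 of the 146 lost their call under at least 1 alternative.

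Each sow gave 1 library, so the replicate numbers do not pair sows across stages. Deviations of same-numbered libraries had correlations from -0.19 to 0.08 over 1605 genes, without L0. Counting error in sums of few nuclei weakens such correlations, so they cannot show whether same-numbered libraries shared a batch. With the replicate number as a block 0 genes were called between stages, and 0 with the numbers of PI2 crossed. Leaving out doublets called by Scrublet was not run, and the 5% of nuclei with the highest score were left out in its place. That alternative was chosen after seeing the data, as were library totals without further scaling and the crossed numbers of PI2. The plan named TMM without a limit on abundance, and the limit of 300 CPM was set later, after a test on simulated data. TMM over all genes is thus the scaling of the plan, run here as an alternative. In the stage comparisons 1 UMI was worth up to 104 CPM.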

Other observations

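Adipsin (CFD) is listed with 0 UMIs in the adipocyte nuclei and in all other nuclei of the 10 glands, whereas in the G90 section it had 584 CPM in spots with at least 3 marker UMIs and 262 CPM in spots with 0. In the PI2 section it had 888 and 944 CPM. The nuclei and the sections were counted with different software, and the part of this in the difference was not tested.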
